A study of Homo sapiens with 15 samples.

Results

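The matricellular and provisional matrix genes are 10 genes that encode proteins of the early, remodelling extracellular matrix and its adhesion-modulating partners. They are FN1, TNC, VCAN, SPARC, THBS1, THBS2, CCN1, CCN2, LGALS1 and LUM. They were found by Entrez gene number among the 28395 genes of the count table, and all 10 were present. All 10 also passed the filter on low counts, LUM only through the 30-week controls. A gene that passes through the group where it is high had to differ, so LUM is described by its counts, and the tests and counts of calls cover the other 9 members.

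BEAS-2B is an established, virally immortalised human bronchial epithelial cell line. Exposed cells received 50 µg/mL of PET-NPLs, nanoplastics of polyethylene terephthalate, in medium renewed every few days, and control cells of the same line and medium were kept in parallel without particles and matched for passage. Total RNA was sequenced from 2 control and 2 exposed samples at 24 h, from 2 and 2 at 15 weeks, and from 3 and 4 at 30 weeks. The labels put the samples of 24 h and 15 weeks in batch 1 and those of 30 weeks in batch 2. Each exposure comparison therefore lies within 1 batch, whereas time and batch cannot be told apart between 15 and 30 weeks. A single cell line and a single dose limit the model, and the labels do not say whether replicates came from separate cultures, so p-values measure the spread between these samples, which may be technical.

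A provisional matrix is laid down by cells during wound repair, branching and tumor invasion, with fibronectin as its scaffold, and tenascin C, versican and hyaluronan making it loose and permissive for migration. Matricellular proteins, such as SPARC, the thrombospondins and the CCN family, contribute little to the structure of the matrix and act mainly by binding integrins, growth factors and proteases. In the lung these proteins are best known from fibroblasts and repairing epithelium, where TGF-β and the mechanosensitive YAP and TEAD factors control several of their genes.

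Library totals ranged between 23143202 and 31459990 counts. Levels are given as CPM, counts relative to the library total, scaled by TMM, which aligns the libraries on the bulk of their genes. The epithelial label was checked on its markers: EPCAM and CDH1, the defining adhesion molecules of epithelium, did not exceed 0.877 and 0.935 CPM in any of the 15 samples, whereas the keratins KRT8 and KRT18 lay at 127 to 710 and 179 to 383 CPM. The 3 control libraries of 30 weeks stood apart. Their summed level of 14 skeletal muscle markers was 172 to 217 CPM, against 5.56 to 13.1 CPM in the other 12 libraries. Their summed airway epithelium markers lay at 313 to 409 CPM, against 878 to 1097 CPM in the exposed cells of 30 weeks. MYOD1, CHRNA1 and TNNT2 made up most of the muscle sum in these controls, with means of 85.3, 47.7 and 38.4 CPM. KRT8 and KRT18 made up most of the airway sum, with means of 149.9 and 194.5 CPM in these controls and 616 and 338 CPM in the exposed cells. A set of 6 abundant small noncoding RNAs took 22.3 to 31% of the counts of the 3 control libraries, against 17.0 to 21.5% in the exposed cells of 30 weeks and 9.75 to 12.9% earlier. Every exposure contrast at 30 weeks rests on these controls. In bulk RNA, fewer cells of a type and less RNA per cell cannot be told apart.

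The stretches upstream of the genes that moved furthest at 30 weeks are shown to let their letters be compared. FN1, TNC and CCN2 were higher in exposed cells and VCAN was lower. Each line holds the 250 bases before the annotated start, 5′ to 3′ on the strand of the gene, from RefSeq (GRCh38.p14). The windows are chr2:215436069-215436318 (minus strand) for FN1, chr9:115118158-115118407 (minus strand) for TNC, chr6:131951373-131951622 (minus strand) for CCN2 and chr5:83471494-83471743 (plus strand) for VCAN. Capitals mark every match, on either strand, to TATAA (the TATA box), TGACGTCA (the CRE), GGAATG (the TEAD or MCAT core), TGANTCA (AP-1), CCAAT or CAGCTG (an E-box used by MyoD).
FN1: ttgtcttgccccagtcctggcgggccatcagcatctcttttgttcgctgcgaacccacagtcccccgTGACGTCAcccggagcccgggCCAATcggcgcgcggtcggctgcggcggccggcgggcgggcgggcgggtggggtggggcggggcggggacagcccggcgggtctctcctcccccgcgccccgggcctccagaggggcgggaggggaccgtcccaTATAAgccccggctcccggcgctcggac
TNC: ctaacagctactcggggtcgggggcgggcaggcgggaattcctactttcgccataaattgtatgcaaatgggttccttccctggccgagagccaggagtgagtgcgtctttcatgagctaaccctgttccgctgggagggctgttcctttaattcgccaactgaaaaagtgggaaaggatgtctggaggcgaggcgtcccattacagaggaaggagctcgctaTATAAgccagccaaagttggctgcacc
CCN2: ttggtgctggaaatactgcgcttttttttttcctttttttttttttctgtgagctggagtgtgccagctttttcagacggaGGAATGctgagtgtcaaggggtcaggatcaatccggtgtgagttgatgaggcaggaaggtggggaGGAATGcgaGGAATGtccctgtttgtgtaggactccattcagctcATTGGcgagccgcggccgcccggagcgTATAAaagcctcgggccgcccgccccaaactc
VCAN: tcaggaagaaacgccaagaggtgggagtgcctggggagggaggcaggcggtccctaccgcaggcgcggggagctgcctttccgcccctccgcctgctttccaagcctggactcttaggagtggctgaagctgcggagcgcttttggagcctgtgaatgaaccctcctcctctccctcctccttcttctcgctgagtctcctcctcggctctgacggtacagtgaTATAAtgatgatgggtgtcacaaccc

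Of the 10 members, 7 had such a window, and CCN1, LGALS1 and LUM had none. The CCN2 window held 3 copies of GGAATG, starting 169, 104 and 95 bases before the start, and GGAATG was also found in SPARC, THBS1 and THBS2, 4 of the 7 windows, against 11.9% of 35116 windows of all genes. FN1 held the only TGACGTCA, 183 bases before its start, a motif present in 1.65% of windows. CCAAT occurred in FN1, THBS1 and CCN2 and in 32.0% of all windows. TATAA was found in 5 of the 7 (FN1, TNC, VCAN, THBS2 and CCN2) and in 18.9% of all windows, and in these 5 it started between 26 and 32 bases before the start. A TATAA on the gene's strand starting 24 to 36 bases before the start, a range chosen after these positions were seen, occurred in 3.66% of all windows. TGANTCA (6.57% of windows) and CAGCTG (14.0%) were found in none of the 7. No 2 matches overlapped, and these matches are letters in a window, not measured binding.

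At 24 h no change of a member with PET-NPLs was called. Acute exposure was compared with its control to ask for an immediate response. No member passed edgeR's quasi-likelihood test after Benjamini-Hochberg adjustment over all 16740 genes tested, as for all genes (0.0% called), none had an unadjusted p under 0.05, and DESeq2 and limma-voom also called 0. FN1 had 2490 and 2149 CPM in control cells and 1899 and 2511 CPM in exposed cells. THBS1, the most abundant member by CPM at this time, had 4836 and 4226 CPM in controls and 4166 and 4901 CPM in exposed cells. The groups overlapped for both genes. They did not for VCAN (1.80 and 1.47 CPM in controls, 2.04 and 2.36 CPM in exposed cells) or CCN2 (97.33 and 85.72 CPM, 97.65 and 101.8 CPM). The share of all genes without overlap was not computed at this time. The interval of the FN1 change, −0.57 to 0.42 on the log2 scale, bounds what 2 samples a group could have shown.

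At 15 weeks no member passed the test either, again as for all genes (0.0% called in edgeR). DESeq2, limma-voom and limma-voom with 2 surrogate variables also called 0 members. Over all 16740 genes, DESeq2 called 16, limma-voom 0 and limma-voom with 2 surrogate variables 19. A single member, VCAN, had an unadjusted p under 0.05 (edgeR, adjusted p = 0.759). VCAN lay at 6.25 and 22.5 CPM in controls and at 4.50 and 6.36 CPM in exposed cells. The groups overlapped, and the log2 difference of −1.41 ± 0.44 (SE, n = 2 and 2) was −0.20 without control replicate 2, which carried the high value. TNC had 166 and 190 CPM in controls and 204 and 276 CPM in exposed cells, a log2 difference of 0.43 ± 0.23 (SE) that did not pass. FN1 was at 212 and 211 CPM in controls and 213 and 200 CPM in exposed cells. The groups did not overlap for TNC, THBS1, SPARC, CCN2 and LGALS1, none of which passed with all 15 samples fitted together. The share of all genes without overlap was not computed here either. With the 4 samples of 15 weeks fitted alone, 304 of 15484 genes and 2 members passed, VCAN (log2 fold change −1.42, adjusted p = 0.0427) and LGALS1 (−0.31, adjusted p = 0.0258).

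At 30 weeks, where chronic exposure was compared with passage-matched controls at its latest time point, 6 of the 9 members tested passed (edgeR, adjusted p under 0.05), against 23.7% of all genes. FN1, TNC and CCN2 were higher in exposed cells, 3 members against 12.0% of all genes, and VCAN, LGALS1 and THBS2 were lower, 3 members against 11.7%. The same 6 were those whose exposed and control samples did not overlap, which held for 27.3% of all genes. The log2 fold changes had a median size of 0.803 among these 9 members and 0.298 among all genes. The members, and the related lists below, were chosen with earlier results of these data known. Their shares of calls therefore cannot show that such genes change more often than others.

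**Figure D1:**
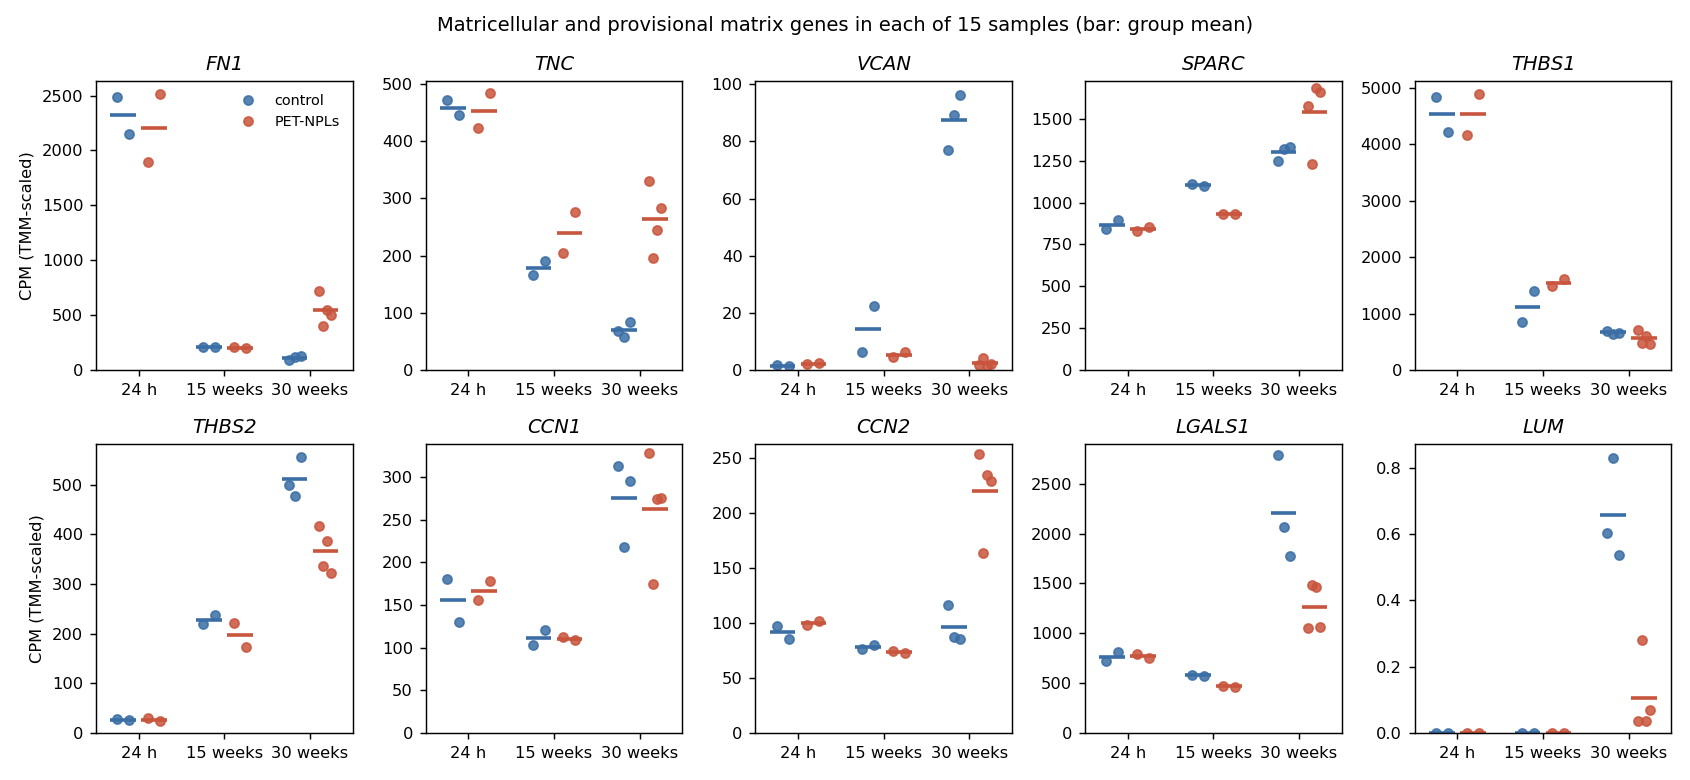
CPM (TMM-scaled, linear axes from 0) of each member in each of the 15 samples by time point, with a bar at the group mean. FN1 and THBS1 were highest at 24 h in both arms, and at 30 weeks the control samples (blue) of FN1, TNC and CCN2 lay below and those of VCAN, THBS2, LGALS1 and LUM above all exposed samples (red).

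Among the structural proteins of the provisional matrix, FN1 (fibronectin, the integrin-binding scaffold; 46 exons, chr2:215360865-215436068) had 93.0, 119 and 132 CPM in the control samples of 30 weeks and 725, 405, 546 and 507 CPM in the exposed samples. Every exposed sample was above every control, and the groups were far apart. The log2 fold change was 2.25 ± 0.19 (SE, n = 3 and 4, edgeR, adjusted p = 4.07e-07). TNC (tenascin C, a large glycoprotein that weakens adhesion to fibronectin; chr9:115019575-115118157) had 68.2, 57.9 and 84.0 CPM in controls and 330, 195, 244 and 283 CPM in exposed cells. The groups did not overlap, and the log2 fold change was 1.91 ± 0.18 (SE, edgeR, adjusted p = 1.51e-06). In both genes the exposed replicate 2 was the sample nearest to the controls.

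VCAN (versican, a chondroitin sulfate proteoglycan that binds hyaluronan; chr5:83471744-83582302) showed the widest gap of the members. It had 77.0, 89.2 and 96.3 CPM in control cells and 1.88, 4.24, 1.63 and 2.18 CPM in exposed cells of 30 weeks. The log2 fold change was −5.13 ± 0.37 (SE, n = 3 and 4, edgeR, adjusted p = 5.72e-08). The exposed samples overlapped with those of 24 h, where VCAN had 1.47 to 2.36 CPM, and the control samples of 30 weeks were the highest of the 15. The summed level of the skeletal muscle markers, given above, was high in the same 3 controls. MYOD1, the myogenic transcription factor, had 65.8 to 106 CPM in the 3 controls and at most 5.72 CPM in every other sample. MYOG, at a far lower level, had 2.13 to 3.19 CPM in the same controls and at most 0.105 CPM in every other sample. Their part in the VCAN result was not tested.

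**Figure D2:**
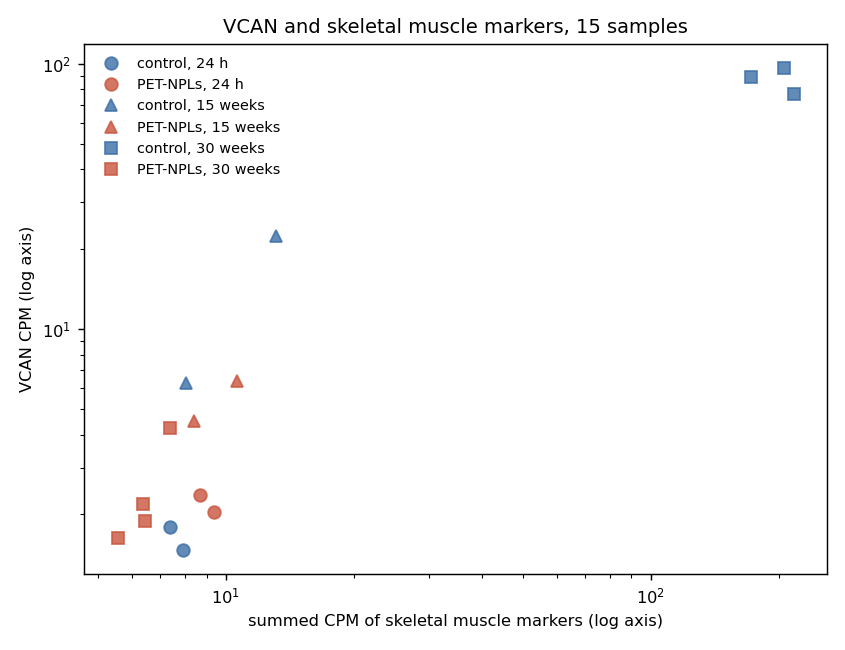
VCAN CPM against the summed CPM of 14 skeletal muscle markers in the 15 samples, both on log axes. The 3 control samples of 30 weeks (blue squares) sit alone at the upper right, with 77.0 to 96.3 CPM of VCAN, and the 12 other samples lie at 22.5 CPM or below.

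LUM (lumican, a small leucine-rich proteoglycan that binds fibrillar collagen; chr12:91102629-91111494) was near the limit of detection. It had 14, 23 and 15 counts in the controls of 30 weeks, 1, 8, 1 and 2 counts in the exposed samples, and 0 counts in all 8 samples of 24 h and 15 weeks. The groups of 30 weeks did not overlap. The mean of the 30-week controls, 0.656 CPM, was at least 6.92-fold higher than the level that 3 counts would give in a control library of 15 weeks. Both this bound and that for an exposed library of 24 h, 5.13-fold, cross the batches and rest on a floor of 3 counts. This floor covers counting error only.

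The CCN proteins, secreted cysteine-rich regulators encoded by immediate-early genes, went separate ways. CCN2 (connective tissue growth factor; chr6:131948176-131951372) had 116, 86.8 and 85.6 CPM in controls and 253, 163, 234 and 229 CPM in exposed cells of 30 weeks. All exposed samples were above all controls, with a log2 fold change of 1.20 ± 0.15 (SE, edgeR, adjusted p = 2.81e-05). CCN1 (CYR61; chr1:85580761-85583950) had 314, 218 and 295 CPM in controls and 328, 174, 274 and 276 CPM in exposed cells. These groups overlapped throughout, and the log2 difference was −0.07 with an interval of −0.46 to 0.33 (edgeR, adjusted p = 0.842), which does not show that CCN1 stayed the same. Its sign turned positive, at 0.087, without exposed replicate 2, which held the lowest value.

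The thrombospondins bind CD36 and CD47 and restrain new vessels, and thrombospondin 1 also activates latent TGF-β. THBS2 (chr6:169215785-169253846) had 499, 478 and 556 CPM in controls and 418, 337, 386 and 322 CPM in exposed cells, without overlap. It fell by 0.48 on the log2 scale (SE 0.13, edgeR, adjusted p = 0.0122), and this call was lost when the samples of 30 weeks were fitted alone (adjusted p = 0.0549). THBS1 (chr15:39581079-39599466) had 693, 649 and 662 CPM in controls and 712, 490, 600 and 466 CPM in exposed cells. Exposed replicate 1 lay above all controls and the others below, and the log2 difference of −0.24 ± 0.18 (SE) did not pass (edgeR, adjusted p = 0.364).

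SPARC (osteonectin, a collagen- and calcium-binding glycoprotein; chr5:151661096-151686915) had 1250, 1321 and 1333 CPM in controls and 1577, 1228, 1682 and 1661 CPM in exposed cells. Of the exposed samples, 3 were above all controls and replicate 2 was below them. The log2 difference was 0.24 ± 0.12 (SE, edgeR, adjusted p = 0.182), and without exposed replicate 2 it was 0.33 and passed (edgeR, adjusted p = 0.0159). LGALS1 (galectin 1, a lectin that crosslinks glycans of matrix and cell surface; chr22:37675636-37679802) had 2787, 2067 and 1775 CPM in controls and 1051, 1487, 1464 and 1063 CPM in exposed cells. The groups did not overlap, and LGALS1 fell by 0.80 on the log2 scale (SE 0.165, edgeR, adjusted p = 0.00223).

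Exposed replicate 2 was the sample of its group nearest to the control mean for 5 of the 6 members that passed (FN1, TNC, VCAN, CCN2 and LGALS1), and replicate 1 for THBS2. Over all genes that passed at 30 weeks, replicate 2 was nearest for 42.9%. Without this replicate all 6 members still passed, and SPARC joined them.

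**Figure D3:**
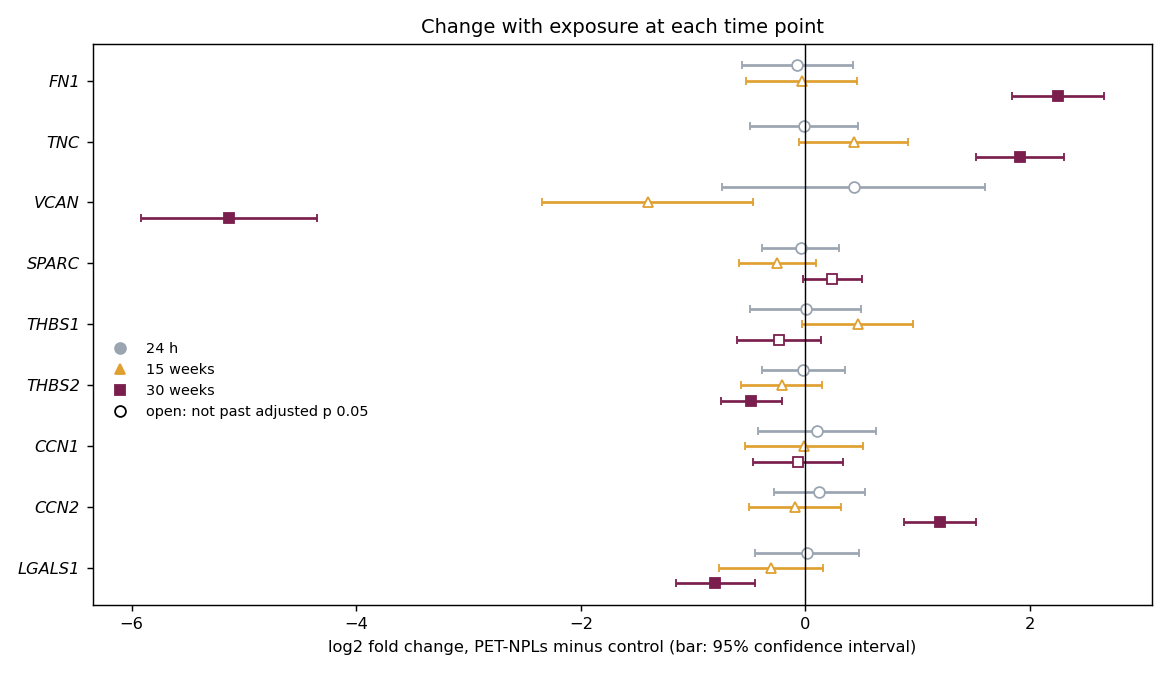
Log2 fold change of exposed over control cells for the 9 members tested at 24 h, 15 weeks and 30 weeks, with 95% confidence intervals. Symbols are filled where the adjusted p was under 0.05, which was the case only at 30 weeks and for 6 members, from −5.13 (VCAN) to 2.25 (FN1).

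The change with exposure itself was compared between 30 and 15 weeks. Of the 9 members, 4 passed this test of the difference, against 4.74% of all genes. The choice of members with earlier results known limits this share as well. The exposure effect on FN1 was higher at 30 weeks by 2.29 ± 0.30 on the log2 scale (SE, edgeR, adjusted p = 0.000222). That on CCN2 was higher by 1.29 ± 0.24 (adjusted p = 0.00438, edgeR), and that on TNC by 1.48 ± 0.29 (adjusted p = 0.00554, edgeR). That on VCAN was lower, with a difference of −3.73 ± 0.57 (adjusted p = 0.000834, edgeR). For THBS2 and LGALS1, which passed at 30 weeks, the difference between time points was −0.27 (−0.72 to 0.18) and −0.50 (−1.08 to 0.08) and did not pass. The TNC call was lost without exposed replicate 1 of 15 weeks (adjusted p = 0.059, edgeR). These differences are free of the batch only if the batch acts alike on both arms, which was not tested.

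The members also moved in cells that never met the particles. In control cells between 24 h and 15 weeks, both in batch 1, 5 of the 9 members passed (edgeR, adjusted p under 0.05), against 24.9% of all genes. FN1 dropped from 2320 ± 241 to 212 ± 0.663 CPM (SD, n = 2 and 2), a log2 fold change of −3.45 (adjusted p = 9.88e-08, edgeR). THBS1 had 854 and 1395 CPM at 15 weeks after 4836 and 4226 CPM at 24 h, and fell by 2.01 on the log2 scale. TNC fell by 1.36. In the opposite direction, THBS2 rose from 27.5 and 26.5 to 220 and 237 CPM, by 3.08 on the log2 scale, and VCAN rose by 3.13. The VCAN rise was 1.93 without control replicate 2 of 15 weeks and 3.77 without control replicate 1, and passed in both cases. Exposed cells showed 5 called members as well, against 26.0% of all genes: FN1 (−3.42), THBS1 (−1.55), TNC (−0.92) and LGALS1 (−0.73) fell and THBS2 (2.89) rose. The call of LGALS1 in exposed cells was lost without any 1 of the 4 samples compared, and that of TNC as well without replicate 2 of 24 h or replicate 1 of 15 weeks, which left 3 members.

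Between 15 and 30 weeks, where time and batch cannot be told apart, 7 of the 9 members passed in control cells, against 50.3% of all genes, and 8 in exposed cells, against 46.0%. FN1 parted: in controls it fell by 0.88 on the log2 scale, and in exposed cells it rose by 1.40. VCAN parted the other way, rising by 2.60 in controls and falling by 1.12 in exposed cells (edgeR, adjusted p = 0.0318), the latter call being lost in 7 of 14 alternatives. The rise in controls was 3.80 without control replicate 2 of 15 weeks and 1.96 without control replicate 1, and passed in both cases. TNC fell by 1.35 in controls, and in exposed cells its log2 difference of 0.13 did not pass (adjusted p = 0.613, edgeR). LGALS1 rose in both arms, by 1.94 and 1.44, as did CCN1 (1.30 and 1.25) and THBS2 (1.16 and 0.89). THBS1 fell in both, by 0.75 and 1.45, the first value being −0.35 and not called without control replicate 2 of 15 weeks (adjusted p = 0.253, edgeR). CCN2 and SPARC rose in exposed cells, by 1.59 and 0.72 in edgeR's test. The arms share no samples here, and their difference is the test between time points given above.

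**Figure D4:**
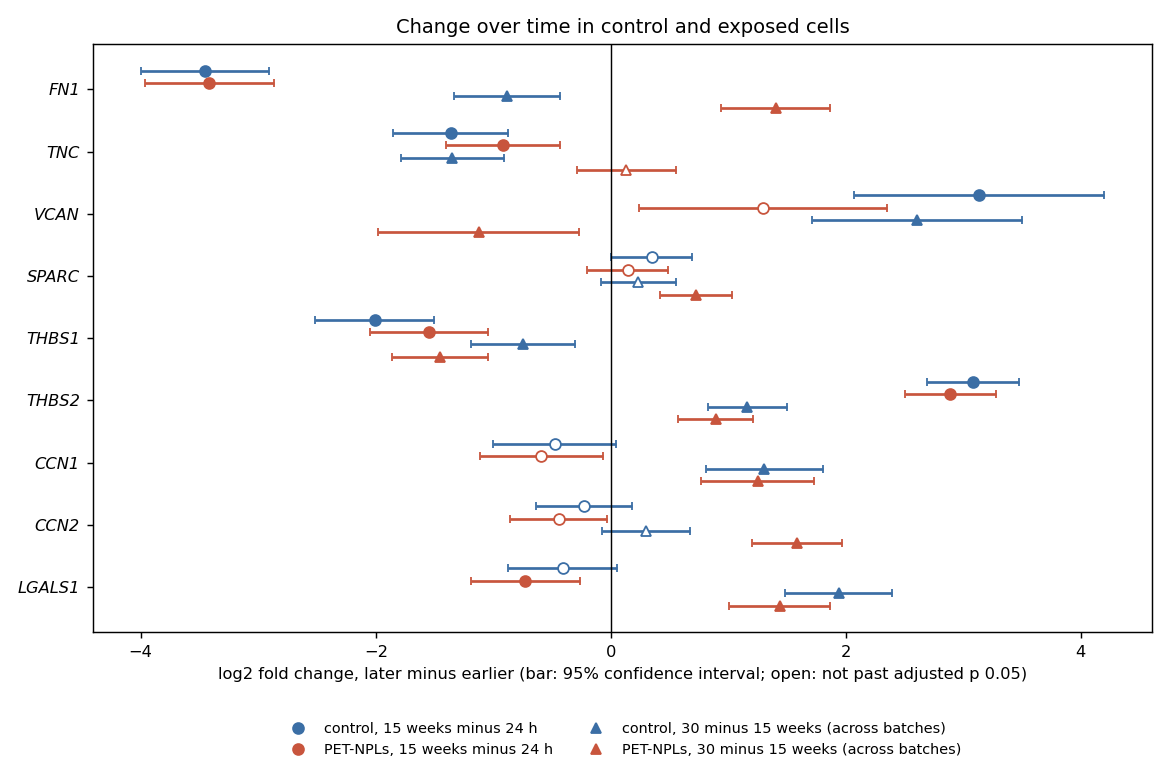
Log2 fold change of 9 members over time in control (blue) and exposed (red) cells, circles for 15 weeks minus 24 h and triangles for 30 minus 15 weeks, with 95% confidence intervals and open symbols where the adjusted p was not under 0.05. The first interval shows similar values in both arms for FN1 (−3.45 and −3.42) and THBS2 (3.08 and 2.89), and the later interval has opposite signs for FN1 (−0.88 and 1.40) and VCAN (2.60 and −1.12).

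Ordered over the 6 conditions, FN1 was highest in the control and exposed cells of 24 h, which overlapped, followed by the exposed cells of 30 weeks (546 ± 133 CPM), the overlapping 15-week groups, and the controls of 30 weeks (115 ± 19.8 CPM). TNC had the 24 h groups on top (458 and 453 CPM, overlapping), then the exposed cells of 30 and 15 weeks (263 and 240 CPM, overlapping), and then the controls of 15 and 30 weeks (178 and 70.0 CPM). VCAN had the reverse end on top, with 87.5 ± 9.78 CPM in the controls of 30 weeks and the next group, the controls of 15 weeks, at 14.4 CPM. CCN2 was highest in the exposed cells of 30 weeks (220 CPM), and the exposed cells of 24 h and the controls of 30 weeks and 24 h came next, with means between 91.5 and 99.8 CPM. The controls of 30 weeks overlapped with both groups of 24 h, which did not overlap with each other. Summed over the 10 members, the level was 9220 CPM in controls and 9104 CPM in exposed cells at 24 h, 3630 and 3782 CPM at 15 weeks, and 5335 and 5031 CPM at 30 weeks. Per kilobase of the MANE transcript, LGALS1 was the highest member in all 6 conditions, at 4190 CPM per kb in controls and 2400 CPM per kb in exposed cells of 30 weeks, followed by THBS1 at 24 h (582 CPM per kb in both arms) and by SPARC at the later times (270 to 445 CPM per kb).

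The genes whose log2 CPM over the 15 samples was most like that of a member were listed for FN1, TNC and VCAN by Pearson's r, as a description over samples that share their libraries. FN1 ran with SMOC1, a SPARC relative (r = 0.984), the cadherin CDH3 (0.982) and IGFBP4 (0.981). TNC ran with the transcription factor NFIA (0.979), the kinase RIPK4 (0.969) and the phosphate transporter SLC20A1 (0.964). VCAN ran with the muscle transcription factors MEF2C (0.976) and MYOD1 (0.97) and with the sulfotransferase CHST2 (0.97). MEF2C had 24.0 CPM in the controls of 30 weeks and at most 0.959 CPM as the mean of any other group.

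Relatives of the members, taken from a list of 36 paralogs and other matricellular proteins, were tested in 18 cases at 30 weeks, and 10 rose and 3 fell, against 12.0% and 11.7% of all genes. Their median change on the log2 scale was 0.527, against 0.008 over all genes. CCN3, the third CCN protein and an antagonist of CCN2 in several tissues, rose from 4.18 to 28.2 CPM (log2 fold change 2.75, edgeR, adjusted p = 1.4e-08), and SMOC1 rose from 0.409 to 2.74 CPM (2.74). VTN, the integrin ligand vitronectin, rose by 1.16 although its samples overlapped. PRELP, like LUM a small leucine-rich proteoglycan, had 8.42 CPM in controls and 0.769 CPM in exposed cells (log2 fold change −3.45, edgeR, adjusted p = 7.84e-08). THBS4 was lower in exposed cells by 1.80 and BCAN, a lectican like VCAN, by 1.47. At 24 h and 15 weeks the group means lay at 0.035 to 0.289 CPM for PRELP, 0.168 to 0.538 CPM for THBS4 and 0.142 to 0.590 CPM for BCAN. Both groups of 30 weeks were above these levels, the controls further. In the test between 30 and 15 weeks, 5 of these 18 passed, against 4.74% of all genes.

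Among receptors for the members' proteins, 19 of 22 genes were tested, 4 rose and 3 fell at 30 weeks, and their median change was 0.068 on the log2 scale. The integrin subunits ITGB8 and ITGB3 are partners of the alpha V subunit. ITGB8 rose from 2.98 to 16.3 CPM (2.45, edgeR, adjusted p = 4.12e-06), and ITGB3 rose from 7.003 to 23.1 CPM (1.72, edgeR, adjusted p = 1.02e-06). CD44, the main hyaluronan receptor, rose from 286 to 475 CPM (0.73, edgeR, adjusted p = 0.000797). ITGA4, ITGA6 and the heparan sulfate proteoglycan SDC1 fell by 0.93, 0.66 and 0.59, with overlapping samples for ITGA4 and ITGA6. The share of these genes called, 36.8% of those tested, is to be read against 23.7% for all genes.

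Of 24 genes for hyaluronan turnover and versican binding, cleavage or glycosylation, 16 were tested besides HAS2, which passed the filter only through the 30-week controls. Of these, 3 rose and 5 fell (median log2 fold change −0.05), against 12.0% and 11.7% of all genes. ADAMTS5 and ADAMTS1, proteases that cleave versican, were lower in exposed cells than in controls, as VCAN was. ADAMTS5 had 31.5 CPM in controls and 0.429 CPM in exposed cells (−6.17, edgeR, adjusted p = 1.01e-08). ADAMTS1 had 99.3 and 20.7 CPM (−2.26, edgeR, adjusted p = 3.4e-06). At 24 h and 15 weeks the group means lay at 0.317 to 0.867 CPM for ADAMTS5 and 14.2 to 20.8 CPM for ADAMTS1, so the controls of 30 weeks were the group that stood apart. FBN1, the microfibril protein fibrillin 1, fell by 0.88. FBLN1 (fibulin 1, which binds fibronectin and versican) rose from 7.37 to 58.1 CPM (2.98, edgeR, adjusted p = 1.19e-06), ADAMTS4 rose by 0.96 and the hyaluronidase CEMIP2 by 0.45. The muscle markers given for VCAN were high in the same controls, and their part was not tested.

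Of 20 YAP and TEAD target genes other than CCN1 and CCN2, all were tested, and 8 rose and 3 fell, against 12.0% and 11.7% of all genes, the median being 0.134 on the log2 scale. F3, the tissue factor of coagulation, rose from 35.9 to 83.4 CPM (1.21, edgeR, adjusted p = 0.0002), NUAK2 rose by 0.88 and DOCK5 by 0.72. IGFBP3, which binds insulin-like growth factors, fell from 168.0 to 73.0 CPM (−1.20, edgeR, adjusted p = 2.16e-05), RBMS3 by 0.86 and CCDC80 by 0.48. ANKRD1, often read as a reporter of YAP, was named after its values were seen. Its mean levels were 77.2 ± 19.2 CPM (SD) in controls and 59.4 ± 53.1 CPM in exposed cells of 30 weeks. It did not pass (edgeR, adjusted p = 0.581), and the exposed mean leaned on replicate 2, which held 138 CPM. No gene of the 4 lists passed at 24 h or at 15 weeks in edgeR's test, with an unadjusted p under 0.05 for 0 genes at 24 h and, at 15 weeks, for 1 relative, 1 receptor, 3 hyaluronan or versican partners and 2 YAP and TEAD target genes.

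**Figure D5:**
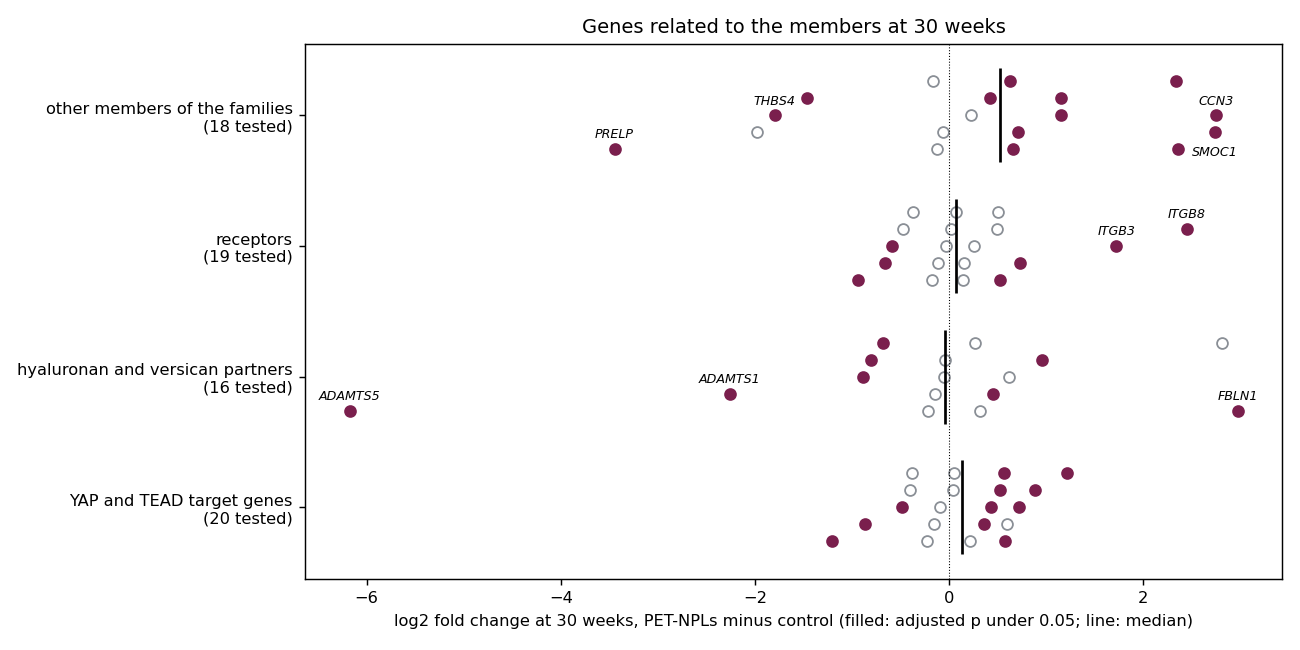
Log2 fold change of exposed over control cells at 30 weeks for the tested genes of the 4 related lists, filled where the adjusted p was under 0.05, with a line at each list's median. The medians lie between −0.05 and 0.53, and ADAMTS5 (−6.17), PRELP (−3.45), FBLN1 (2.98) and CCN3 (2.75) are the named genes farthest from 0.

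Markers of other cell types were read beside these results. Summed fibroblast or mesenchyme markers, 10 genes, lay at 2043 to 2565 CPM in the controls and 1779 to 2030 CPM in the exposed cells of 30 weeks. Most of this sum was VIM, with means of 1604 and 1288 CPM, which did not pass (edgeR, adjusted p = 0.08). Of the 7 tested, COL1A2 (3.28) and CDH2 (1.16) rose and COL1A1 (−2.91) and S100A4 (−0.64) fell on the log2 scale. Summed smooth muscle or myofibroblast markers, 6 genes, lay at 147 to 175 CPM in controls and 255 to 366 CPM in exposed cells, with TAGLN (0.93) and LMOD1 (1.55) higher. This sum was nearly all TAGLN, with means of 157 and 300 CPM. ACTA2, CNN1, MYH11 and ACTG2 had means of at most 1.42 CPM in either group and were not called. Airway epithelium markers were higher in 4 of the 6 tested, against 12.0% of all genes, all of them keratins, among them KRT8 (2.04), KRT18 (0.80) and KRT19 (1.93). EPCAM (−0.23) and CDH1 (−0.12) did not pass. KRT5, KRT14, TP63 and NKX2-1 had means of at most 0.024 CPM in either group of 30 weeks and were not tested. Of the skeletal muscle markers, mean levels in the controls and the exposed cells of 30 weeks were 85.3 and 0.462 CPM for MYOD1, 47.7 and 0.131 CPM for CHRNA1 and 38.4 and 0.176 CPM for TNNT2. ACTC1, TNNI1, RYR1, MYOG and DES also had higher means in these controls, of at most 10.3 CPM. The rest of this list did not go with them. MYH3 had 3.16 and 3.49 CPM and did not pass (edgeR, adjusted p = 0.612). MYF5 and MYF6 had 0 CPM in both groups, and MYH8, ACTA1 and CKM had means of at most 0.1065 CPM. PECAM1, CDH5 and PTPRC, which define endothelium and blood cells, did not exceed 0.292, 0.739 and 0.227 CPM in any sample. The endothelium list summed to at most 3.01 CPM, with VWF (1.72) higher in exposed cells, and in the blood list CD14 (1.72) was higher and CD68 (−0.95) lower. The part of these marker lists in the members' results was not tested.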

How the data were processed

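Raw counts per gene were deposited by the authors, whose methods name Rfastp for trimming and quality filtering, and Rsubread for mapping to GRCh38 and for counting. The submitters' processing notes also name bcl2fastq, featureCounts and hg38. The strand and multimapping settings of the counting are not given in the sources used here, so reads of near-identical or overlapping genes may be split or shared. Library totals ranged between 23143202 and 31459990 counts (median 28605451). Samples were grouped by time point and treatment. Genes were filtered with filterByExpr (16740 of 28395 kept), scaled with TMM and tested with edgeR 4.0.16 (R 4.3.3), by a quasi-likelihood fit with 1 mean for each of the 6 conditions, Benjamini-Hochberg adjustment over all genes and a threshold of 0.05. Standard errors were taken from the fitted coefficient and its F statistic, and intervals are at 95%. The test was tried on simulated data beforehand. Symbols came from the Entrez numbers (27745 matched), and positions and MANE transcripts from GENCODE and RefSeq annotations of GRCh38. Alternatives used DESeq2 1.42.0, limma-voom (limma 3.58.1), sva 3.50.0, other filters and scalings, and samples left out in turn. LUM, HAS2 and 6 marker genes, which passed the filter (0.35 CPM at the median depth) only through 1 of the 30-week groups, were left out of tests and counts after their values were seen. All 10 members were named whatever their result. From each other list, up to 3 of the largest called rises and falls at 30 weeks with a mean of at least 1 CPM were named, and 3 genes most like FN1, TNC and VCAN. The members and lists were chosen with earlier results of these data known.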

Additional observations from a re-analysis of the deposited data

Results flagged for a closer look

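The change with exposure differed between 30 and 15 weeks, by edgeR's test of the difference itself, in 4 members. On the log2 scale the change at 30 weeks less that at 15 weeks was 2.29 for FN1, 1.48 for TNC, 1.29 for CCN2 and −3.73 for VCAN.

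In the exposed cells of 30 weeks, LUM was higher in replicate 2 than in the other samples, with a gap of 0.855 of the group's range, above Dixon's critical value for 4 samples. The counts were 8 in this sample and 1, 1 and 2 in the others. All lay below the filter of 0.35 CPM, where counting error is large, so this flag cannot decide whether the sample stands out. Chance flags about 1 in 20 groups, and 10 members were examined in this group.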

How the results depend on the processing

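Of 891 values of members recomputed under alternatives at 15 weeks, at 30 weeks and over time, 844 kept direction and side of the threshold, 16 lost their call, 16 gained one and 15 changed sign. At 30 weeks FN1, TNC, VCAN, CCN2 and LGALS1 kept their calls in all 16 alternatives, and the number of members called ranged from 5 to 7. With each time point fitted alone, 2 members and 304 genes passed at 15 weeks, against 0 and 0, and the companion lists gave 8 relatives and 3 receptors at 30 weeks, against 13 and 7. Fewer samples entered those fits, and the spread was estimated from those samples alone. The part of either in the gains and losses was not tested. With at least 10 counts in every sample, 5 relatives passed, of the 9 still tested. With 2 surrogate variables, 9 members passed between 24 h and 15 weeks in control cells and 8 in exposed cells, against 5 each, and signs turned for CCN1 at 15 weeks (0.099) and at 30 weeks (0.024), CCN2 at 15 weeks (0.008), CCN2 in control cells between 15 and 30 weeks (−0.13) and TNC in exposed cells between these times (−0.1). The cause was not tested. Leaving out 1 sample at a time gave 3 to 4 members between 24 h and 15 weeks in exposed cells, and log2 fold changes of −0.081 to 0.015 for FN1 and −0.116 to 0.105 for CCN1 at 15 weeks, −0.212 to 0.087 for CCN1 at 30 weeks, −0.199 to 0.1 for the difference in CCN1 between time points, and −0.07 to 0.364 for TNC in exposed cells between 15 and 30 weeks. Where this left 1 sample in a group, that sample is assumed to vary like the other groups.

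Samples with the same replicate number had correlations of deviations from −0.118 to 0.303, and a pair with different numbers at 30 weeks reached 0.359. With 2 samples a group the deviations mirror each other, so this check cannot tell whether the numbers pair the samples. With a replicate block 6 members passed at 30 weeks and 4 in the difference between time points, as without it, and 0 at 24 h and at 15 weeks. Genes with few reads, LUM above all, are limited by depth.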
